A study of Mus musculus with 6 samples.

Results

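The DNA replication machinery was described by 40 genes, chosen by name as the proteins that license, unwind, copy and repackage DNA at the replication fork. Each was taken from the count table by its Ensembl identifier, and all 40 were found among the 20409 features listed there and among the 13346 genes that passed the filter on low counts. The measurements are RNA-seq counts from the villus epithelium of the mouse duodenum, with 3 double mutant villi libraries (DMV) and 3 wild-type villi libraries (WTV), each from a different mouse. Double mutant mice, of mixed stock enriched for C57BL6, were Smad4 fl/fl and Ctnnb exon3 fl/wt, so that recombination removes Smad4 and stabilises β-catenin from 1 allele, and expressed Villin-CreERT2, a tamoxifen-inducible recombinase active throughout the intestinal epithelium. They received tamoxifen at 0.05 g/kg by intraperitoneal injection on 4 days, and villi were collected 7 days after induction. The controls were wild-type littermates that were not injected, so the mutations and the tamoxifen cannot be told apart in any comparison here. Each group held 1 male (mouse 1) and 2 females (mice 2 and 3), matched for age, and the age itself was not given in the sources used here.

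Villi lie above the crypts of the small intestine. Cells divide in the crypts, leave the cell cycle as they move onto the villus, and differentiate there, so villus enterocytes are normally post-mitotic. In a dividing cell, the origin recognition complex together with Cdc6 and Cdt1 loads the ring of MCM2 to MCM7 onto DNA before S phase, Cdc45 and the GINS complex turn that ring into an active helicase, and the DNA polymerases then copy the strands behind it with the help of the sliding clamp PCNA. Many of these genes are known targets of the E2F transcription factors, which bind a short GC-rich element near the start of transcription.

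The promoter windows in the RefSeq table (build GRCm38.p6) run from 250 bases before to 50 bases after a start site, and they were searched for 4 spellings of the E2F element (TTTCCCGC, TTTCGCGC, TTTGCCGC and TTTGGCGC) on both strands. A window was found for 32 of the 40 genes, and *Gins1*, *Gins2*, *Gins4*, *Gmnn*, *Mcm4*, *Pole*, *Prim2* and *Rfc2* had none in the table. The element stood in a window of 13 of these 32 genes (40.6%), against 704 of 27025 genes with a window (2.6%) and 407 of 8852 tested genes with one (4.6%). The 8 genes whose match lies upstream of the start are shown here because they include the licensing and helicase genes that the results turn on. Each is read 5′ to 3′ on the strand of its gene with up to 15 bases to either side of the match, and the capitals mark the matched bases. A run written as the reverse complement (such as GCGGGAAA for TTTCCCGC) is a match on the other strand.
Orc1 (chr4:108579412-108579449, plus strand): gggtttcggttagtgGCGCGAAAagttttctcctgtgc
Cdc6 (chr11:98907998-98908035, plus strand): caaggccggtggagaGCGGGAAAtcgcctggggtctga
Mcm5 (chr8:75109341-75109382, plus strand): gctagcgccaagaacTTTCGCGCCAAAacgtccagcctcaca
Mcm6 (chr1:128359730-128359830, minus strand): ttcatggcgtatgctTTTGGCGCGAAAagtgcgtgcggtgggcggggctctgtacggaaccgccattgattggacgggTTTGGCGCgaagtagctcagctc
Mcm7 (chr5:138172026-138172063, minus strand): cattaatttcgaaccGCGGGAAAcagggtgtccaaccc
Gins3 (chr8:95633503-95633540, plus strand): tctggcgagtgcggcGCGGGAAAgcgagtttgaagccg
Pola1 (chrX:93632271-93632308, minus strand): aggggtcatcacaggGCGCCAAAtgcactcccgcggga
Rfc3 (chr5:151651209-151651233, minus strand): agtgacgtcgcacgcTTTCGCGCtc
In *Mcm5* the capitals are 2 matches on opposite strands that share letters, and in *Mcm6* a pair of overlapping matches is followed by a further one closer to the start. In *Cdt1*, *Lig1*, *Mcm3*, *Pold1* and *Pole2* the match lies after the start site and is not printed, and *Mcm7* and *Rfc3* each hold a second match at or after the start that is not printed either. Among the genes that were higher in DMV by the test described next, 8 of 22 with a window held the element (36.4%), and among those that did not pass it, 5 of 10 did (50%). The share was thus not larger among the higher genes, and *Mcm2* and *Pcna*, which both rose, had no match in their windows.

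Between 19678507 and 26337318 reads per mouse were counted. Levels are given as CPM, that is counts scaled to a common library size, after TMM scaling for differences in RNA composition, with values in every mouse in the order of mice 1, 2 and 3. Differences are given as log2 fold changes of DMV over WTV with their standard errors (SE). A gene was called higher or lower when its p in the quasi-likelihood test of edgeR, adjusted by Benjamini-Hochberg across the 13346 tested genes, was under 0.05. *Smad4*, the deleted gene, had 119.8, 180.1 and 144.5 CPM in the WTV mice and 26.1, 36.8 and 32.1 CPM in the DMV mice (log2 fold change -2.22, SE 0.187, adjusted p = 0.000145), in the direction of the labels in every mouse. WTV mouse 1 stood apart from the other WTV mice in its markers of goblet, Paneth and crypt stem cells: summed goblet cell markers were 125 CPM against 11616 and 11039 CPM, Paneth cell markers 7.91 CPM against 909 and 1500 CPM, and crypt stem cell markers 33.7 CPM against 108 and 118 CPM. For genes in which this mouse was far below the others, values without it are given beside the main ones.

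In double mutant villi, 5 of 6 genes of the MCM ring, 3 of 4 of polymerase α-primase, 4 of 6 of the clamp and its loader and 3 of 3 of replication protein A were higher. Of the 40 genes, 24 were higher and 0 were lower, and 16 did not pass the test, while over all tested genes 19.7% were higher and 17% lower (36.8% in either direction). Among the 24, *Orc1*, *Mcm3*, *Pola1*, *Fen1* and *Chaf1b* passed the low-count filter through their DMV level alone. At an unadjusted p under 0.05, 28 of the 40 were higher and 0 lower in edgeR (24.8% and 21.8% of all tested genes), and DESeq2 and limma-voom also called 0 lower at the adjusted threshold. In 29 of the 40 genes (72.5%) all 3 DMV mice lay above all 3 WTV mice, which held for 28.1% of all tested genes (24.2% had the reverse), and in the other 11 the groups overlapped. The median log2 fold change of the 40 genes was 1.14, against 0.02 for all tested genes, and ranged from -0.38 for *Pola2* to 2.88 for *Mcm3*. The rise was moderate in size: 20 genes were higher by at least 1 on the log2 scale (10.9% of all tested genes, with 6.23% lower by as much), and 4 of them, *Mcm3*, *Chaf1b*, *Mcm5* and *Pola1*, by at least 2 (3.04% of all), of which *Mcm3*, *Chaf1b* and *Pola1* passed the low-count filter through their DMV level alone. Without WTV mouse 1, 23 of the 40 were higher and 0 lower.

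**Figure D1:**
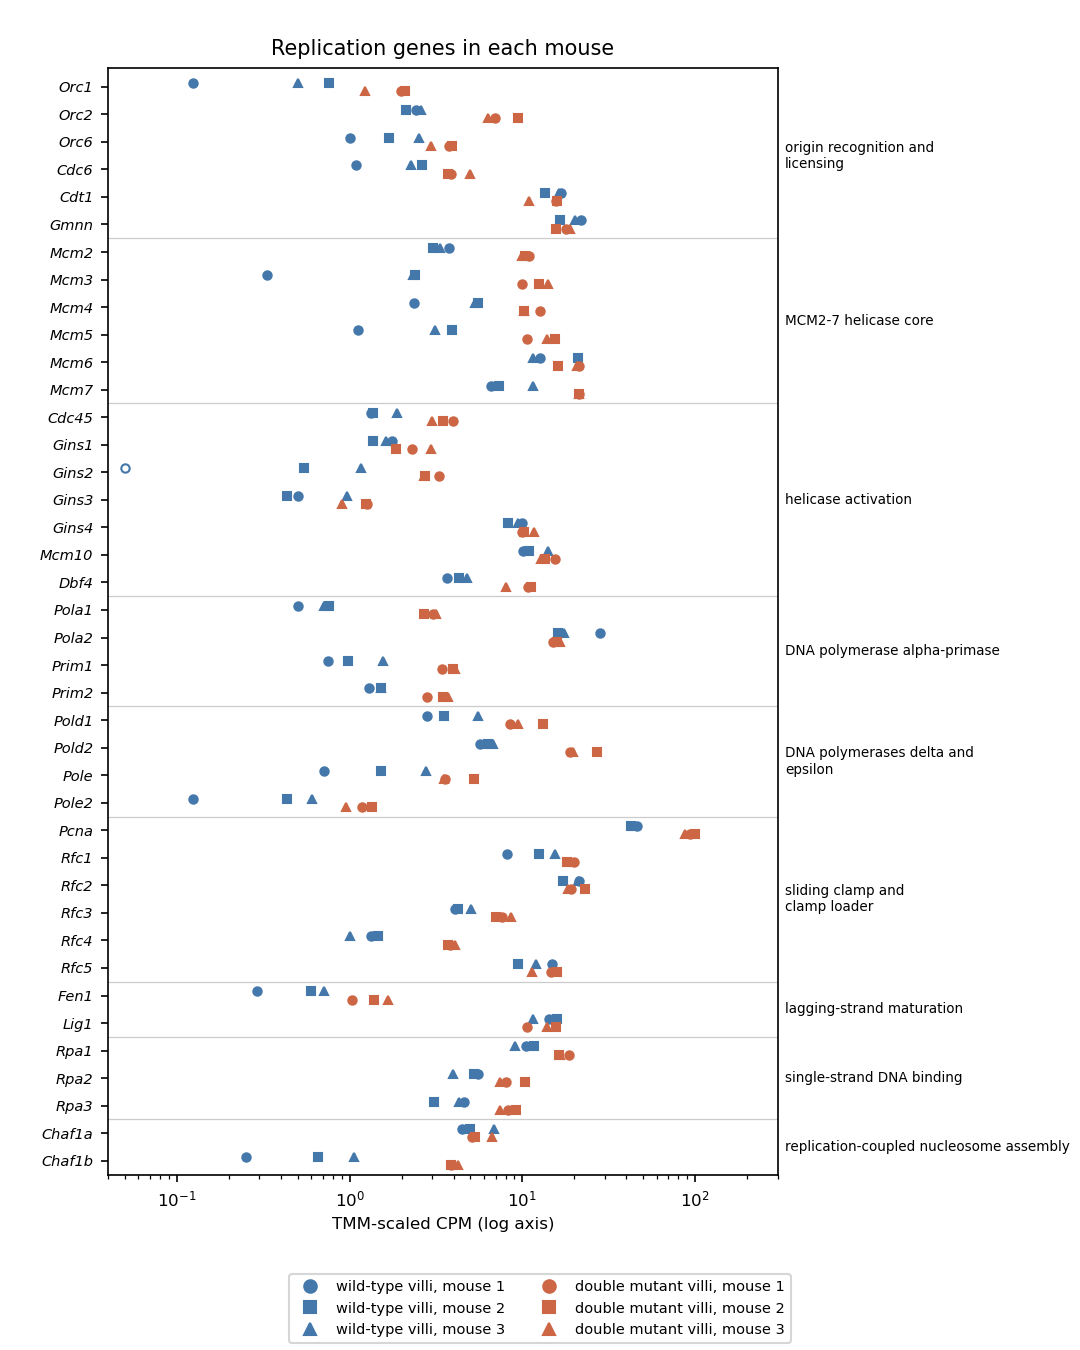
Level of each of the 40 replication genes in each mouse, as TMM-scaled CPM on a log axis, with genes grouped by their step in replication. Circles, squares and triangles are mice 1, 2 and 3 of each group, and the open circle marks the 0 counts of Gins2 in WTV mouse 1, drawn at the left edge. The DMV mice lie to the right of the WTV mice in 29 genes, and the groups overlap in 11.

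Summed over the 40 genes, the level was 273, 268 and 288 CPM in the WTV mice and 455, 484 and 445 CPM in the DMV mice. The group means were 277 ± 10.6 and 461 ± 20.1 CPM (SD, n = 3 mice each), a ratio of 1.67, and the ratio was 1.58 without *Pcna*, the most abundant of them. All DMV mice lay above all WTV mice, with a gap between the groups that was wider than the range within either. The steps moved by unequal amounts, with ratios of 3.06 for the 4 subunits of polymerases δ and ε among the 40, 2.45 for the MCM ring, 1.76 for RPA, 1.69 for the clamp and its loader, 1.59 for the CAF-1 subunits, 1.51 for helicase activation, 1.17 for licensing, 1.09 for polymerase α-primase and 1.02 for lagging-strand maturation. In polymerase α-primase and in lagging-strand maturation the summed levels of the groups overlapped. With *Pold3*, *Pold4*, *Pole3* and *Pole4*, which are outside the 40, the ratio for polymerases δ and ε was 1.38, and these 4 alone had a ratio of 1.14 with overlap. In bulk RNA, a larger share of cells of a type and more RNA per cell cannot be told apart, and this holds for every difference given here.

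Of the 6 licensing genes, 3 were called higher. *Orc1*, the largest subunit of the origin recognition complex, had 0.125, 0.762 and 0.505 CPM in the WTV mice and 1.97, 2.09 and 1.23 CPM in the DMV mice. Its groups did not overlap, and it was higher in DMV by 1.95 on the log2 scale (SE 0.582, adjusted p = 0.0296), on only 3 to 14 counts per WTV mouse. The call on *Orc1* was lost without WTV mouse 3 (adjusted p = 0.0698), without DMV mouse 1 (0.0850) and without DMV mouse 2 (0.0968), and the log2 fold change was 1.47 without WTV mouse 1. *Orc2*, a core subunit of the same complex, had 2.37 ± 0.231 CPM in WTV and 7.59 ± 1.65 CPM in DMV and was higher by 1.67 (SE 0.243, adjusted p = 0.00130). *Cdc6*, the ATPase that helps to load the MCM ring, was higher by 1.08 (adjusted p = 0.0448), a call that was lost without WTV mouse 3 or without any 1 of the DMV mice (adjusted p from 0.0732 to 0.144). The difference in *Cdc6* was 0.77 without WTV mouse 1. *Orc6*, the smallest subunit, did not overlap between the groups but missed the threshold (log2 fold change 1.03, adjusted p = 0.0589). It passed in DESeq2 (adjusted p = 0.0495), limma-voom (0.0354) and without WTV mouse 3 (0.0288). Without WTV mouse 1, its lowest WTV mouse, the difference was 0.74 (adjusted p = 0.0841). *Cdt1*, the loading factor that is destroyed in S phase, had 16.8, 13.6 and 16.3 CPM in the WTV mice and 15.6, 15.8 and 10.9 CPM in the DMV mice. The groups overlapped (log2 fold change -0.15, SE 0.185, adjusted p = 0.572), and so did those of its inhibitor geminin, *Gmnn* (log2 fold change -0.16, SE 0.154, adjusted p = 0.454).

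The MCM ring rose in 5 of its 6 subunits, and these 5 calls were kept in every alternative fit and with each mouse left out. *Mcm3* had 0.333, 2.39 and 2.33 CPM in the WTV mice and 10.0, 12.5 and 14.1 CPM in the DMV mice. This was the widest difference of the 40 genes (log2 fold change 2.88, SE 0.584, adjusted p = 0.00833), and without WTV mouse 1, where only 8 reads were counted, it was 2.37. *Mcm5* had 1.12, 3.92 and 3.13 CPM in the WTV mice and 10.7, 15.5 and 14.0 CPM in the DMV mice, with no overlap (log2 fold change 2.31, SE 0.406, adjusted p = 0.00362). The difference in *Mcm5* was 1.92 without WTV mouse 1. *Mcm2* was the steadiest, with 3.75, 3.05 and 3.34 CPM in the WTV mice and 10.9, 10.3 and 9.92 CPM in the DMV mice (log2 fold change 1.62, SE 0.185, adjusted p = 0.000483). *Mcm4* had 2.37, 5.55 and 5.31 CPM in the WTV mice and 12.6, 10.3 and 10.2 CPM in the DMV mice (log2 fold change 1.33, SE 0.310, adjusted p = 0.0109). In *Mcm4*, too, WTV mouse 1 lay lowest, the groups did not overlap, and without that mouse the difference was 1.02. *Mcm7* had 6.62, 7.29 and 11.5 CPM in the WTV mice and 21.4, 21.2 and 21.2 CPM in the DMV mice, with an SD of only 0.116 CPM in DMV (log2 fold change 1.33, SE 0.215, adjusted p = 0.00219).

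*Mcm6* was the exception in the ring. It had 12.7, 20.9 and 11.5 CPM in the WTV mice and 21.3, 16.0 and 20.7 CPM in the DMV mice, so that WTV mouse 2 lay above 2 of the DMV mice (log2 fold change 0.36, SE 0.239, adjusted p = 0.266). The result turned on that mouse: without WTV mouse 2 *Mcm6* was called higher by 0.67 (adjusted p = 0.0377). Per length, its WTV level was the highest of the ring, and its promoter window held 3 matches to the E2F element, the most among the sequences printed above.

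In the genes that activate the ring, 2 of 7 passed the test. *Cdc45*, the helicase cofactor, was higher by 1.19 (SE 0.295, adjusted p = 0.0141), and the call was lost only without DMV mouse 1 (adjusted p = 0.0502). *Dbf4*, the regulatory subunit of the kinase that fires origins, rose from 4.24 ± 0.545 to 10.0 ± 1.68 CPM (log2 fold change 1.24, SE 0.211, adjusted p = 0.00265). *Gins2*, a GINS subunit, had 0, 0.544 and 1.16 CPM in the WTV mice and 3.29, 2.74 and 2.71 CPM in the DMV mice. The groups did not overlap, but the estimate was wide (log2 fold change 2.38, SE 0.858, adjusted p = 0.0638), and it was called higher without WTV mouse 1 (log2 fold change 1.75, adjusted p = 0.00663) and without WTV mouse 3 (3.50, adjusted p = 0.0310), as well as by DESeq2 (adjusted p = 0.00656) and limma-voom (0.0293). The 0 counts in WTV mouse 1 allow a level of up to 0.125 CPM (3 counts), and 2758 of the 4097 exon bases of *Gins2* are shared with *Gse1* on the opposite strand, which was lower in DMV. The other GINS subunits did not pass. The difference in *Gins1* was 0.58 (SE 0.318, adjusted p = 0.187) with no overlap between groups, and that in *Gins3* was 0.85 (SE 0.449, adjusted p = 0.173) with overlap, on at most 27 counts per mouse. *Gins4* had 10.00, 8.21 and 9.40 CPM in the WTV mice and 9.95, 10.2 and 11.7 CPM in the DMV mice, and its groups overlapped (log2 fold change 0.20, SE 0.165, adjusted p = 0.369). *Mcm10*, a scaffold of the active helicase, overlapped as well (log2 fold change 0.25, SE 0.178, adjusted p = 0.304).

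**Figure D2:**
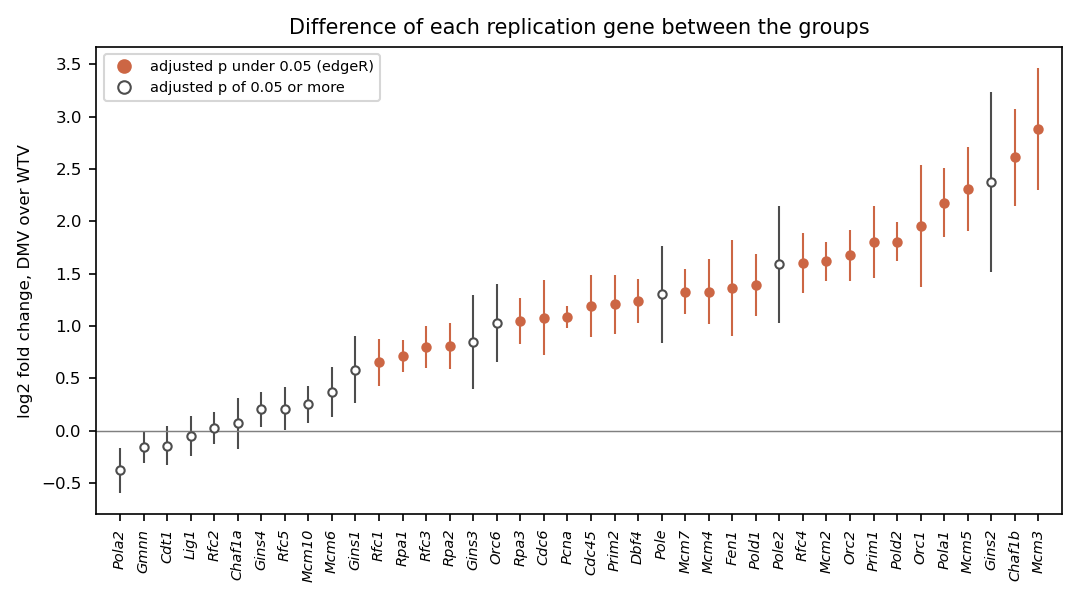
Log2 fold change of DMV over WTV for the 40 replication genes, ordered by size, with bars of 1 SE. Filled points are the 24 genes with an adjusted p under 0.05 (edgeR) and open points the other 16; values run from -0.38 for Pola2 to 2.88 for Mcm3.

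Polymerase α-primase, which lays the RNA and DNA primer, rose in 3 of its 4 subunits. *Pola1*, the catalytic polymerase, had 0.500, 0.762 and 0.708 CPM in the WTV mice and 3.05, 2.69 and 3.18 CPM in the DMV mice (log2 fold change 2.18, SE 0.334, adjusted p = 0.00168). The primase subunits *Prim1* and *Prim2* were higher by 1.80 (SE 0.345, adjusted p = 0.00454) and 1.21 (SE 0.284, adjusted p = 0.0114). All 3 calls were kept with each mouse left out. *Pola2*, the accessory subunit, had 28.3, 16.2 and 17.3 CPM in the WTV mice and 15.1, 15.9 and 16.6 CPM in the DMV mice. Apart from WTV mouse 1, which lay far above the others, its 5 values fell within a narrow range, and it had the lowest fold change of the 40 genes (log2 fold change -0.38, SE 0.216, adjusted p = 0.202; -0.08 without WTV mouse 1).

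Among the replicative polymerases, 2 of the 4 subunits of polymerase δ rose. *Pold2*, its small subunit, had 5.66, 6.36 and 6.72 CPM in the WTV mice and 18.9, 27.1 and 19.6 CPM in the DMV mice (log2 fold change 1.81, SE 0.188, adjusted p = 0.000329). *Pold1*, the catalytic subunit of the lagging-strand polymerase, was higher by 1.39 (SE 0.294, adjusted p = 0.00699). The other subunits, *Pold3* and *Pold4*, did not pass the test (log2 fold change 0.09 and 0.25, adjusted p = 0.692 and 0.184). *Pole*, the catalytic subunit of the leading-strand polymerase, had 0.708, 1.52 and 2.78 CPM in the WTV mice and 3.57, 5.24 and 3.51 CPM in the DMV mice. Its groups did not overlap, but it missed the threshold (log2 fold change 1.31, SE 0.464, adjusted p = 0.0556), as did its partner *Pole2* (log2 fold change 1.59, SE 0.558, adjusted p = 0.0535). Both were called higher without WTV mouse 3 (adjusted p = 0.0172 for *Pole* and 0.0467 for *Pole2*), and without WTV mouse 1 their differences were 0.93 and 1.14. The limma-voom test also called both (adjusted p = 0.0279 and 0.0371), and DESeq2 called *Pole* (0.0236) but not *Pole2* (0.0770). Outside the 40, the polymerase ε subunit *Pole4* was higher in edgeR with no overlap (log2 fold change 1.03, SE 0.171, adjusted p = 0.00235). The subunit *Pole3* did not pass (log2 fold change -0.04, adjusted p = 0.877).

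The sliding clamp gave the most precise difference of the 40. *Pcna*, which encircles DNA and tethers the polymerases, had 46.3, 42.4 and 44.0 CPM in the WTV mice and 93.8, 100.4 and 87.6 CPM in the DMV mice, on 780 to 2164 counts per mouse. It rose 2.12-fold with no overlap (log2 fold change 1.09, SE 0.107, adjusted p = 0.000275), and with each mouse left out the log2 fold change stayed between 1.03 and 1.14. The annotation also lists the pseudogenes *Pcna-ps1* and *Pcna-ps2*, and how reads matching several places were counted is not given in the sources used here. Of the 5 subunits of replication factor C, the ATPase that loads the clamp, *Rfc4* moved most, with 1.33, 1.47 and 1.01 CPM in the WTV mice and 3.80, 3.71 and 4.08 CPM in the DMV mice (log2 fold change 1.60, SE 0.285, adjusted p = 0.00333). *Rfc3* was higher by 0.80 (SE 0.199, adjusted p = 0.0145), a call lost without WTV mouse 2 (adjusted p = 0.0520) or DMV mouse 3 (0.0635). *Rfc1*, the large subunit, was higher by 0.65 (SE 0.223, adjusted p = 0.0490), and that call held with only WTV mouse 3 left out, the adjusted p running from 0.0611 to 0.120 in the other 5 fits. Without WTV mouse 1 the difference in *Rfc1* was 0.43. *Rfc2* had 21.3, 17.1 and 21.1 CPM in the WTV mice and 19.2, 23.0 and 18.3 CPM in the DMV mice. Its groups overlapped (log2 fold change 0.02, SE 0.152, adjusted p = 0.924), and *Rfc5* overlapped too (log2 fold change 0.21, SE 0.208, adjusted p = 0.459).

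Lagging-strand maturation joins the short fragments of the discontinuous strand. *Fen1*, the nuclease that trims their flaps, had 0.292, 0.598 and 0.708 CPM in the WTV mice and 1.03, 1.39 and 1.66 CPM in the DMV mice. It was called higher (log2 fold change 1.36, SE 0.460, adjusted p = 0.0465) on 7 to 35 counts per mouse, and the call was lost whichever mouse was left out (adjusted p from 0.0584 to 0.157), with a difference of 1.05 without WTV mouse 1. Of its 2422 exon bases, 1909 are shared with *Gm10143* on the other strand, so its count is uncertain. *Lig1*, the ligase that seals the fragments, had 14.2, 15.8 and 11.5 CPM in the WTV mice and 10.7, 15.6 and 13.8 CPM in the DMV mice, with overlap (log2 fold change -0.05, SE 0.192, adjusted p = 0.858).

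Replication protein A, which coats single-stranded DNA, was called higher in all 3 subunits, by 1.64-fold to 2.06-fold. *Rpa3* had 4.58, 3.10 and 4.30 CPM in the WTV mice and 8.22, 9.18 and 7.40 CPM in the DMV mice (log2 fold change 1.05, SE 0.221, adjusted p = 0.00699). *Rpa1*, the main DNA-binding subunit, had 10.5, 11.6 and 9.10 CPM in the WTV mice and 18.5, 16.3 and 16.6 CPM in the DMV mice (log2 fold change 0.71, SE 0.155, adjusted p = 0.00778). *Rpa2*, the subunit phosphorylated in the cell cycle, was higher by 0.81 (SE 0.220, adjusted p = 0.0204), and lost its call without WTV mouse 2 (adjusted p = 0.0512), WTV mouse 3 (0.0699) or DMV mouse 2 (0.0865). In each of the 3 genes the groups did not overlap.

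Chromatin assembly factor CAF-1 places histones on new DNA. *Chaf1b*, its middle subunit, had 0.250, 0.653 and 1.06 CPM in the WTV mice and 3.85, 3.85 and 4.22 CPM in the DMV mice, with no overlap (log2 fold change 2.61, SE 0.463, adjusted p = 0.00324). The difference was 2.20 without WTV mouse 1. *Chaf1a*, its large subunit, had 4.50, 4.95 and 6.87 CPM in the WTV mice and 5.12, 5.29 and 6.69 CPM in the DMV mice, and these groups overlapped (log2 fold change 0.07, SE 0.239, adjusted p = 0.847).

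In the MCM ring, polymerase α-primase, replication factor C, GINS and CAF-1, the subunit with the highest level in wild-type villi did not pass the test. In RPA and in the pair of *Pold1* and *Pold2* that subunit (*Rpa3* and *Pold2*) was called higher. Between genes, levels were compared as CPM per kilobase of exon (union of exons in mm9), and this comparison was chosen after the values were seen. The 24 higher genes had a median WTV level of 0.795 CPM per kb and the 11 genes with overlapping groups one of 3.44 CPM per kb, while the 5 that were not called but did not overlap (*Orc6*, *Gins1*, *Gins2*, *Pole* and *Pole2*) had one of 0.229 CPM per kb. Of the 10 genes with the highest WTV level per kb, 3 were called higher (*Pcna*, *Pold2* and *Rpa3*), and of the other 30, 21 were. These are descriptions without a test, since a fold change and the WTV level share the same counts. Split by the mean CPM over both groups instead, 13 of the 20 genes with the lower mean and 11 of the 20 with the higher mean were called, against 20.6% and 19.3% of all tested genes on either side of the same level.

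The spread of subunit levels within the MCM ring was wider in WTV than in DMV. The ratios here use the same counts as the fold changes above, so they are a description and not a separate result. In the WTV mice the most abundant MCM subunit was 26.1, 5.98 and 3.40 times the least abundant per kb, and in the DMV mice 1.60, 1.68 and 1.69 times. On the group means, *Mcm6* at 3.44 CPM per kb stood above *Mcm3* at 0.563 CPM per kb in WTV, while in DMV the 6 subunits lay between 3.07 (*Mcm4*) and 4.81 CPM per kb (*Mcm7*). With the length of the longest protein-coding transcript in place of the exon union, the ratio of the group means went from 6.13 to 2.34. The same narrowing per kb, with all DMV mice below all WTV mice, was seen in polymerase α-primase (from 174, 65.1 and 75.2 times to 15.2, 18.1 and 16.0 times), in replication factor C (from 16.2, 11.8 and 21.1 times to 6.02, 7.81 and 5.03 times) and in the large CAF-1 subunits (from 31.7, 13.3 and 11.4 times to 2.34, 2.42 and 2.79 times). With the transcript length the ratios in CAF-1 were 12.2, 5.12 and 4.38 in the WTV mice and 1.11, 1.08 and 1.07 in the DMV mice, with *Chaf1b* as the higher subunit in DMV. The lowest WTV subunit of the ring, of polymerase α-primase and of CAF-1 (*Mcm3*, *Pola1* and *Chaf1b*) had few WTV counts and entered the test through its DMV level. Without *Mcm3* the ratios in the ring were 9.05, 5.29 and 2.95 in the WTV mice and 1.60, 1.68 and 1.69 in the DMV mice. Without *Pola1* those in polymerase α-primase were 50.8, 22.2 and 14.9 in the WTV mice and 5.93, 5.35 and 5.46 in the DMV mice. With the transcript length they were 24.6, 10.8 and 9.27, and then 4.35, 3.70 and 3.63. For CAF-1 no such value can be given, since it would leave 1 gene. It was not seen everywhere. For *Pold2* over *Pold1* the ratio per kb was 5.20, 4.61 and 3.13 in the WTV mice and higher, at 5.74, 5.27 and 5.33, in the DMV mice, and for RPA and for *Pole* with *Pole2* the groups overlapped.

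**Figure D3:**
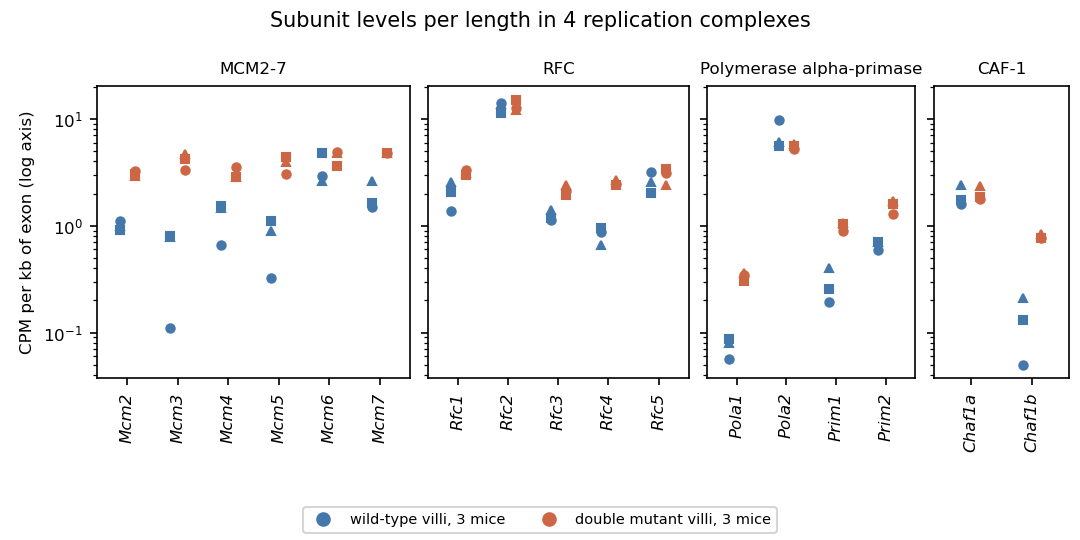
TMM-scaled CPM per kilobase of exon (log axis) of the subunits of the MCM ring, replication factor C, polymerase α-primase and CAF-1 in the 3 WTV mice (blue) and the 3 DMV mice (orange), with circles, squares and triangles for mice 1, 2 and 3. In the ring the ratio of the highest to the lowest subunit is 3.40 or more in each WTV mouse and at most 1.69 in each DMV mouse.

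WTV mouse 1 had the lowest level of the 3 WTV mice in 23 of the 40 genes and in 17 of the 24 that were called higher, and 6 of the 40 had fewer than 10 counts there. It was also the mouse with few crypt, goblet and Paneth cell markers, and the part that this played in the low levels was not tested. Of the 40 genes, 8 reached the minimum of the low-count filter in all 3 mice of DMV only (*Orc1*, *Mcm3*, *Gins2*, *Gins3*, *Pola1*, *Pole2*, *Fen1* and *Chaf1b*), and the other 32 reached it in both groups. Those 8 genes entered the test through their DMV level, so a count over them alone carries no weight. The 24 called higher include *Orc1*, *Mcm3*, *Pola1*, *Fen1* and *Chaf1b* of these 8. The 29 genes without overlap include all of the 8 but *Gins3*.

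The cell type markers that moved beside the replication genes were as follows. Summed crypt stem cell markers (7 genes) were 33.7 to 118 CPM in WTV and 170 to 228 CPM in DMV, with 3 of the 7 called higher and no overlap between the groups. Paneth cell markers (6 genes, 0 called by edgeR) ran from 7.91 to 1500 CPM in WTV and from 153 to 248 CPM in DMV, and goblet cell markers (8 genes, 1 called higher) from 125 to 11616 CPM and from 4669 to 5064 CPM, so both overlapped. Enterocyte markers (10 genes, 8 lower) were 49569 to 57573 CPM in WTV and 27457 to 28852 CPM in DMV, the largest sum of any list in either group. Tuft cell markers (5 of 5 tested lower) were 107 to 155 CPM and 13.9 to 15.02 CPM, and enteroendocrine markers (7 genes, 5 lower) 225 to 314 CPM and 98.5 to 109 CPM. Markers of lymphocytes (9 genes, 2 lower) ran from 89.0 to 179 CPM in WTV and from 77.7 to 119 CPM in DMV, those of stroma and endothelium (8 genes) from 1.75 to 3.26 CPM and, without overlap, from 3.70 to 7.46 CPM, those of macrophages and dendritic cells (5 genes) from 1.75 to 4.95 CPM and from 2.63 to 3.37 CPM, and those of B and plasma cells (4 genes, all under the low-count filter) were at most 1.38 CPM in any mouse. The part of these cell types in the replication genes was not tested. In WTV mouse 1, the mouse with the lowest crypt markers, the summed MCM ring was 26.9 CPM against 43.1 and 37.2 CPM in the other WTV mice, the 4 subunits of polymerases δ and ε 9.29 CPM against 11.9 and 15.6 CPM, and all 40 genes 273 CPM against 268 and 288 CPM.

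**Figure D4:**
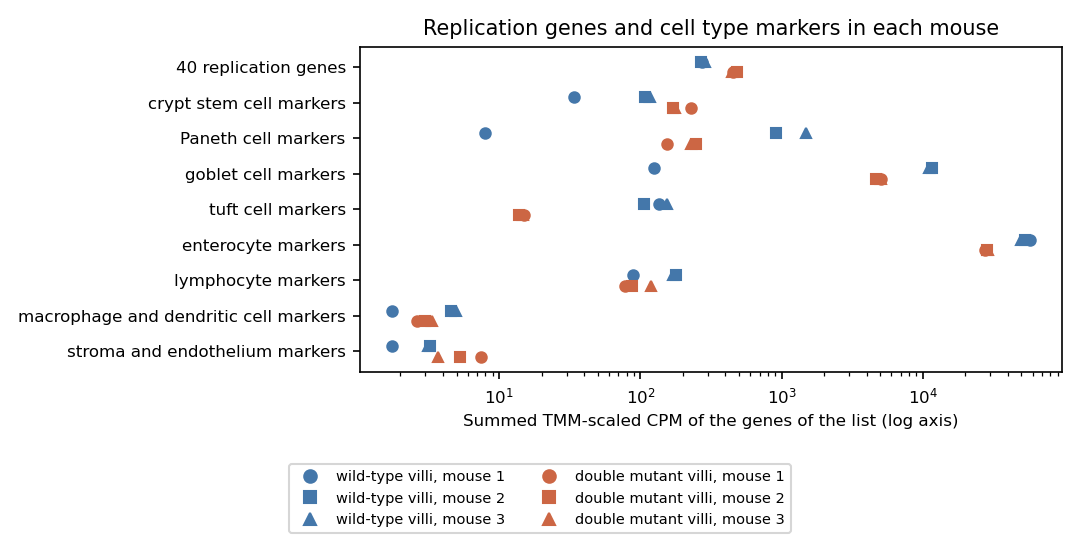
Summed TMM-scaled CPM (log axis) of the 40 replication genes and of 8 lists of cell type markers in each mouse, with WTV in blue, DMV in orange and circles, squares and triangles for mice 1, 2 and 3. The replication genes, the crypt stem cell markers and the stroma and endothelium markers lie higher in all DMV mice, and the tuft and enterocyte markers lower. WTV mouse 1 stands apart in Paneth and goblet cell markers.

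A further 47 replication genes outside the 40 (other licensing and firing factors, clamp partners, fork protection, primer removal, topoisomerases and chromatin factors) were measured too. All but *Dscc1* were tested, and of these 46, 23 were higher and 1 was lower, with a median log2 fold change of 0.73. The shares over all tested genes were 19.7% higher and 17% lower. The number of higher genes fell to 15 without DMV mouse 1 and also without DMV mouse 2. Apart from *Ticrr*, 10 of the 46 reached the minimum of the low-count filter in all 3 mice of DMV only. Of these 10, 9 were among the 23 called higher. *Ticrr* was also called higher, and it fell under the minimum in WTV mouse 1 (4 counts) but in no DMV mouse. The calls on these genes therefore carry no weight as a count. The highest fitted fold changes among those called were in *Exo1* and *Asf1b*. *Exo1*, a nuclease of repair and flap processing, had 0, 0.163 and 0.607 CPM in the WTV mice (0, 3 and 12 counts) and 1.41, 1.99 and 1.85 CPM in the DMV mice (log2 fold change 2.79, SE 0.826, adjusted p = 0.0296). It was one of those 10. Its log2 fold change was 2.15 without WTV mouse 1 and 4.47 without WTV mouse 3. Its call was lost without WTV mouse 2 or any 1 of the DMV mice (adjusted p from 0.0666 to 0.101). *Asf1b*, a histone chaperone of proliferating cells that was also one of the 10, rose from 0.657 ± 0.201 to 4.42 ± 1.48 CPM (log2 fold change 2.75, SE 0.398, adjusted p = 0.00129). *Mcmbp*, which binds free MCM subunits, was the gene that fell, from 60.3 ± 7.40 to 43.8 ± 5.68 CPM (log2 fold change -0.46, SE 0.141, adjusted p = 0.0315). The call on *Mcmbp* was lost under scaling by library size alone and without WTV mouse 1, WTV mouse 2, DMV mouse 2 or DMV mouse 3 (adjusted p from 0.0699 to 0.162). By group, the tested genes called higher were 5 of 11 in licensing and firing, 1 of 4 other polymerase subunits, 2 of 6 clamp loaders and partners, 5 of 6 in fork protection and checkpoint, 1 of 2 MCM paralogues, 2 of 5 in flap and primer removal, 1 of 3 topoisomerases and 6 of 9 chromatin factors. In fork protection, 4 of the 5 (*Timeless*, *Tipin*, *Clspn* and *Chek1*) were among the 10 genes that passed the filter through DMV only. In licensing and firing, *Cdc7*, also among the 10, and *Ticrr* passed it in that way. The groups were not tested against each other.

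Of the E2F factors and their DP partners, 7 of 10 were higher and 0 lower (edgeR, and also 0 in DESeq2 and limma-voom), with a median log2 fold change of 0.86. Over all tested genes, 19.7% were higher and 17% lower in edgeR. *E2f7*, an atypical member that represses, had the highest fold change, from 0.359 ± 0.171 to 1.78 ± 0.349 CPM (log2 fold change 2.30, SE 0.455, adjusted p = 0.00522), on 5 to 11 counts per WTV mouse. It passed the low-count filter through its DMV level alone. *E2f1*, the activator best known for S-phase entry, rose from 0.930 ± 0.309 to 2.33 ± 0.805 CPM (log2 fold change 1.32, SE 0.417, adjusted p = 0.0365), a call that was lost without WTV mouse 1, WTV mouse 2, DMV mouse 2 or DMV mouse 3 (adjusted p from 0.0507 to 0.138). *E2f2*, *E2f5*, *E2f6*, *E2f8* and the partner *Tfdp1* were also higher, while *E2f3*, *E2f4* and *Tfdp2* did not pass the test and overlapped between the groups.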

How the data were processed

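PolyA-enriched RNA of duodenal villus epithelium from 3 WTV and 3 DMV mice was sequenced. After read cleaning, the authors used HISAT2 for alignment to mm9 and featureCounts for counting, and the deposited values are raw counts per gene, 1 column per mouse, unnormalized. Strand and multi-mapping settings are not given in the sources used here, so overlapping genes and copies are uncertain. Besides *Gins2* and *Fen1*, *Orc1*, *Orc2*, *Mcm7*, *Cdc45*, *Pole*, *Rfc4*, *Rfc5*, *Lig1* and *Chaf1a* share some exon bases with other genes. The labels do not name litters or isolation days, and p-values measure the spread between these mice.

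From the counts, genes were kept by filterByExpr (13346 of 20409; minimum 0.498 CPM of the library total in 3 mice), scaled by TMM and tested with edgeR 4.0.16 (glmQLFit, robust, and glmQLFTest) in R 4.3.3, with Benjamini-Hochberg adjustment. CPM is relative to the counts on tested genes. Standard errors are the log2 fold change over the square root of F. In each mouse 3 counts equal 0.125 to 0.163 CPM, which covers counting error only. Transcripts outside the annotation (336 features) hold 0.214% to 0.27% of counts. Symbols, mm9 coordinates and exon lengths are from GENCODE vM1 and promoters from RefSeq.

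The 40 genes and the other lists were chosen with earlier results of these data known. Values in every mouse are given for *Mcm2* to *Mcm7*, *Pcna* and the genes with the largest and smallest absolute change in each step. Of the other replication and E2F lists, the 2 largest rises and every gene that fell are named. *Gse1*, *Gm10143* and the pseudogenes of *Pcna* were named after their values were seen. Alternatives were DESeq2 1.42.0, limma-voom (limma 3.58.1), RLE factors, library size alone, 2 other filters, a replicate block, sex as a term, females only, fold thresholds of 1 and 2, and each mouse left out. Transcript length in place of exon length, the spread without subunits of few WTV counts and the sum over all subunits of polymerases δ and ε were added after seeing the data. The tests were checked on simulated counts.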

Additional observations from a re-analysis of the deposited data

How the results depend on the processing

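The 40 genes held 21 to 28 higher and 0 lower calls under the other tests, normalizations, filters and covariates, 19 to 24 with each mouse left out, 20 at a log2 fold change of at least 1 and 4 at 2. Fold thresholds aside, 17 of the 24 calls were kept in every fit, and 11 genes were called in none. The replicate numbers did not pair the mice (correlations of same-numbered mice 0.02, -0.11 and 0.01), and with the replicate number as a block 21 of the 40 genes, 20 of the other replication genes and 6 E2F and DP factors were higher, against 2084 higher and 1750 lower of all genes. Calls on *Orc1*, *Cdc6*, *Cdc45*, *Rfc1*, *Rfc3*, *Fen1* and *Rpa2* were lost in at least 1 setting. Calls on *Orc6*, *Mcm6*, *Gins2*, *Pole* and *Pole2* were gained in at least 1. Scaling by library size alone raised the median log2 fold change of all genes from 0.02 to 0.22. It gave 3732 higher and 1425 lower genes in place of 2632 and 2273. Of the other replication genes, 32 were then higher and 0 lower, in place of 23 and 1. The same scaling moved the log2 ratio of the summed level from 0.74 to 0.93. It turned the uncalled differences of *Cdt1* (0.048), *Gmnn* (0.037) and *Lig1* (0.14). Further turns, all far from the threshold, were *Lig1* in females only (0.11) and *Rfc2* under DESeq2 (-0.00097) and RLE factors (-0.0041). With each mouse left out, the ranges were -0.24 to 0.014 for *Cdt1*, -0.085 to 0.092 for *Rfc2*, -0.18 to 0.10 for *Lig1*, -0.059 to 0.27 for *Chaf1a*, 0.70 to 0.77 for the summed level, 15 (without DMV mouse 1 or 2) to 23 higher and 0 to 1 lower other replication genes, 5 to 6 higher E2F and DP factors, and 1812 to 2783 higher and 1630 to 2361 lower of all genes. Fold thresholds of 1 and 2 left 18 and 8 higher and 0 lower other replication genes, 3 and 1 E2F and DP factors, 1454 and 406 higher genes and 832 and 302 lower genes. The causes were not tested, except that a fold threshold calls fewer genes by construction. Counts in at least 1 mouse were under 10 for *Orc1*, *Mcm3*, *Gins2*, *Gins3*, *Pole2*, *Fen1* and *Chaf1b*, and the part of depth in their calls was not tested.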
